A study of Mus musculus with 15 samples.

Results

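Milk and blood proteins were set against plant and insect meal in organoid monolayers of the mouse duodenum. The 6 arrays of casein (CAS, bovine milk protein) and spray dried plasma protein (SDPP, from porcine blood) formed one side, and the 6 arrays of soybean meal (SBM) and yellow mealworm (YMW, larvae of Tenebrio molitor) formed the other. These 12 arrays are 12 of the 15 in the series, and the 3 arrays of the medium control (MC, DMEM) took no part in the comparison. The arrays were chosen by the agent in their labels and not by any measured value.

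Every array held total RNA from 3 pooled wells of a confluent monolayer grown from duodenal crypts of female C57BL/6J mice aged 9 weeks and kept in medium with EGF, Noggin, WNT3A and R-spondin. Exposure to each source lasted 6 h at a dose labelled 4% (w/v), and the lower mass per volume that the study's methods also give does not equal that percentage. Insoluble material had been spun out of the homogenates, so the cells met the soluble part of undigested powders of Bos taurus casein, Sus scrofa plasma, Glycine max meal and Tenebrio molitor. Organoids came from 3 mice, but the labels do not tie a replicate number to a mouse. Each side is a pair of sources, so a difference between the sides describes these 4 powders and not milk, blood, plants or insects in general. Probe set intensities were taken to the log2 scale, on which all levels and differences below are given.

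Cells of the duodenal lining meet electrophiles and oxidants in food, and the transcription factor NRF2, freed from KEAP1, switches on genes for glutathione synthesis, glutathione transfer and the reduction of quinones and carbonyls. TGF-beta and BMP signals restrain epithelial growth and induce their own feedback inhibitors. Dietary ligands of the aryl hydrocarbon receptor (AHR) induce Cyp1a1 and Cyp1b1, cytochrome P450 enzymes that oxidise planar aromatic compounds.

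Of 18820 genes tested, 10 (0.0531%) passed a Benjamini-Hochberg adjusted p under 0.05 in the comparison of the sides, 7 higher and 3 lower in CAS and SDPP than in SBM and YMW. At the study's threshold, an unadjusted p under 0.05 with a fold change of at least 1.5, there were 6 genes (0.0319%), 4 higher and 2 lower. The 10 calls depended on the fit, whose p-values leave out the spread between the sources of a side. With the source as a random block, or with 6 against 6 arrays and no source term, 0 genes passed the adjusted threshold by limma, with 1373 and 1128 at an unadjusted p under 0.05, and without the CAS arrays 0 passed as well, with 690. In the comparison as fitted, an unadjusted p under 0.05 was reached by 1211 genes (6.43%), of which 941 would be a 5% share. Few genes thus met the study's or the adjusted threshold in this fit, which does not show how many differed. Within a side, 49 genes (0.26%) between CAS and SDPP and 31 (0.165%) between SBM and YMW met the study's threshold, and 9 (0.0478%) and 4 (0.0213%) the adjusted one. These counts rest on 3 against 3 arrays, which gives noisier differences than 6 against 6, so they do not rank the contrasts. The median absolute difference was 0.0563 between the sides, against 0.0748 for CAS minus SDPP and 0.081 for SBM minus YMW, with the same limit. Of the variance over all genes, 10.1% lay between the sides with 1 degree of freedom, 18.7% between the sources of a side with 2, and 71.2% between arrays of a source with 8. Per degree of freedom these parts were 10.1%, 9.37% and 8.9%. None of the first 5 principal components separated the sides after adjustment. Component 4, with 9.33% of the variance, came closest (exact permutation test, two-sided, of 6 against 6 arrays, p = 0.0368, adjusted p = 0.184 over the 5 components; the smallest p possible was 0.00216).

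Genes were called alike in both sources of a side when the unadjusted p was under 0.05, the 4 differences of source means across the sides (CAS minus SBM, CAS minus YMW, SDPP minus SBM, SDPP minus YMW) had one sign, and the smallest of them was at least 1.2-fold. This rule was met by 21 genes (0.112%), 12 higher and 9 lower in CAS and SDPP. The rule does not adjust for the number of genes tested, so meeting it does not by itself show that a gene differed, and the count of 21 is a description. Of these genes 3, Tnfsf13b, Mtmr11 and Cbr3, also passed the adjusted threshold. Signal was above background in 17 of them, 10 higher and 7 lower, where background, a log2 level of 3.91, is the level that 95% of the 1157 odorant and pheromone receptor genes on the array stay under. The other 4 were Chrna9 and Ifi214, higher, and Lipo3 and Svs3b, lower, and their levels are not described. In 6 of the 21 genes (0.0319% of all genes) the 6 arrays of one side all lay beyond the 6 of the other, which 60 of all genes (0.319%) did.

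**Figure D1:**
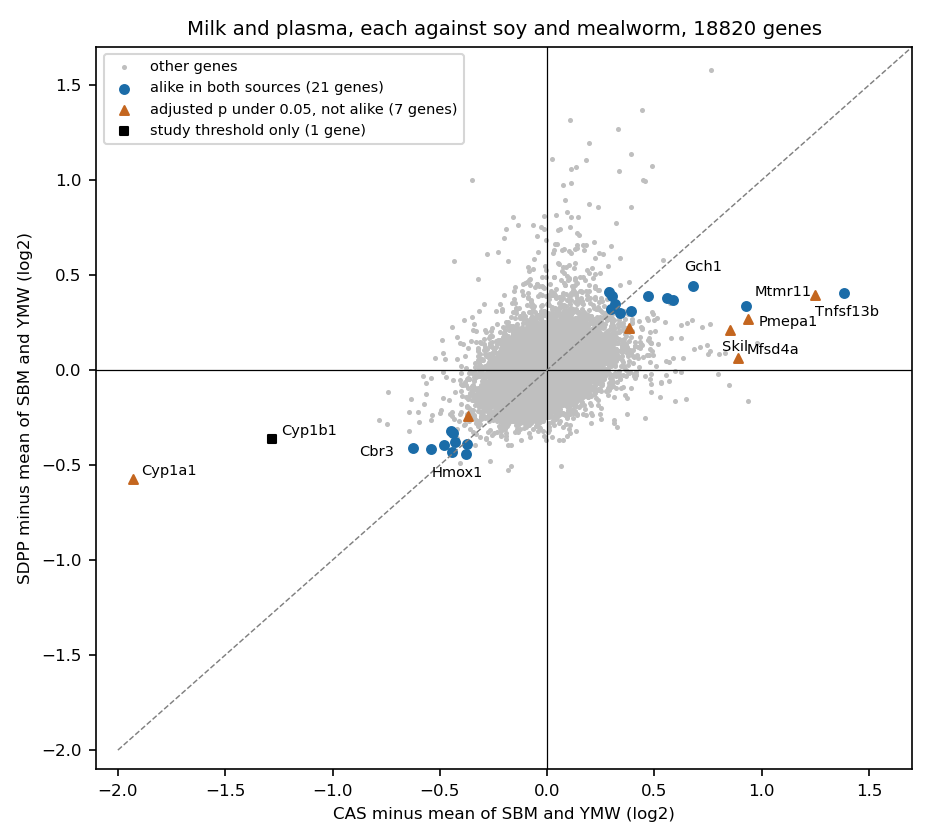
Each point is a gene, with CAS (x axis) and SDPP (y axis) each minus the mean of SBM and YMW, in log2 units. Both axes share the SBM and YMW arrays, so points on the dashed diagonal moved equally in CAS and SDPP, and the axes are not independent. The 21 genes called alike lie near the diagonal except Tnfsf13b and Mtmr11, while Mfsd4a, Pmepa1 and Skil lie far out along the CAS axis.

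Cbr3 and Akr1b8, which encode reductases of carbonyl compounds, were lower in CAS and SDPP than in SBM and YMW at the adjusted threshold. Cbr3, carbonyl reductase 3, had levels of 6.98, 6.98 and 7.10 in CAS and 7.13, 7.44 and 7.14 in SDPP, against 7.61, 7.51 and 7.81 in SBM and 7.57, 7.71 and 7.66 in YMW. No array of CAS or SDPP reached an array of SBM or YMW. The side difference was -0.52 ± 0.07 (SE, adjusted p = 0.0141), with -0.41 the smallest of the 4 differences across the sides, the largest such minimum among the 21 genes. SBM and YMW had equal means of 7.65. The gene stayed alike whichever of the 12 arrays was left out. The adjusted p, however, ran between 0.0108 and 0.0784 over those fits, and it was under 0.05 in 6 of them. With all 15 arrays in the fit the adjusted p was 0.51, and with a replicate block 0.047.

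Akr1b8, an aldo-keto reductase of aldehydes, was also lower without overlap, at 10.07 to 10.33 (median 10.18) in CAS and SDPP, against 10.41 to 10.63 (median 10.47) in SBM and YMW. Its difference was -0.30 ± 0.04 (SE, adjusted p = 0.0168), and the smallest difference across the sides was 1.14-fold, under the size asked of alike genes. The adjusted p was under 0.05 in 5 of the 12 fits that left out 1 array, and 0.162 with all 15 arrays in the fit. Hmox1, haem oxygenase 1 and a classical NRF2 target, had levels of 8.24, 8.38 and 8.20 in CAS and 8.19, 8.32 and 8.34 in SDPP, against 8.62, 8.64 and 8.49 in SBM and 8.56, 9.02 and 8.94 in YMW. The means of CAS and SDPP differed by -0.01, and no array of theirs reached an SBM or YMW array. The difference of -0.44 ± 0.08 (SE) had an adjusted p of 0.0723, short of the threshold.

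**Figure D2:**
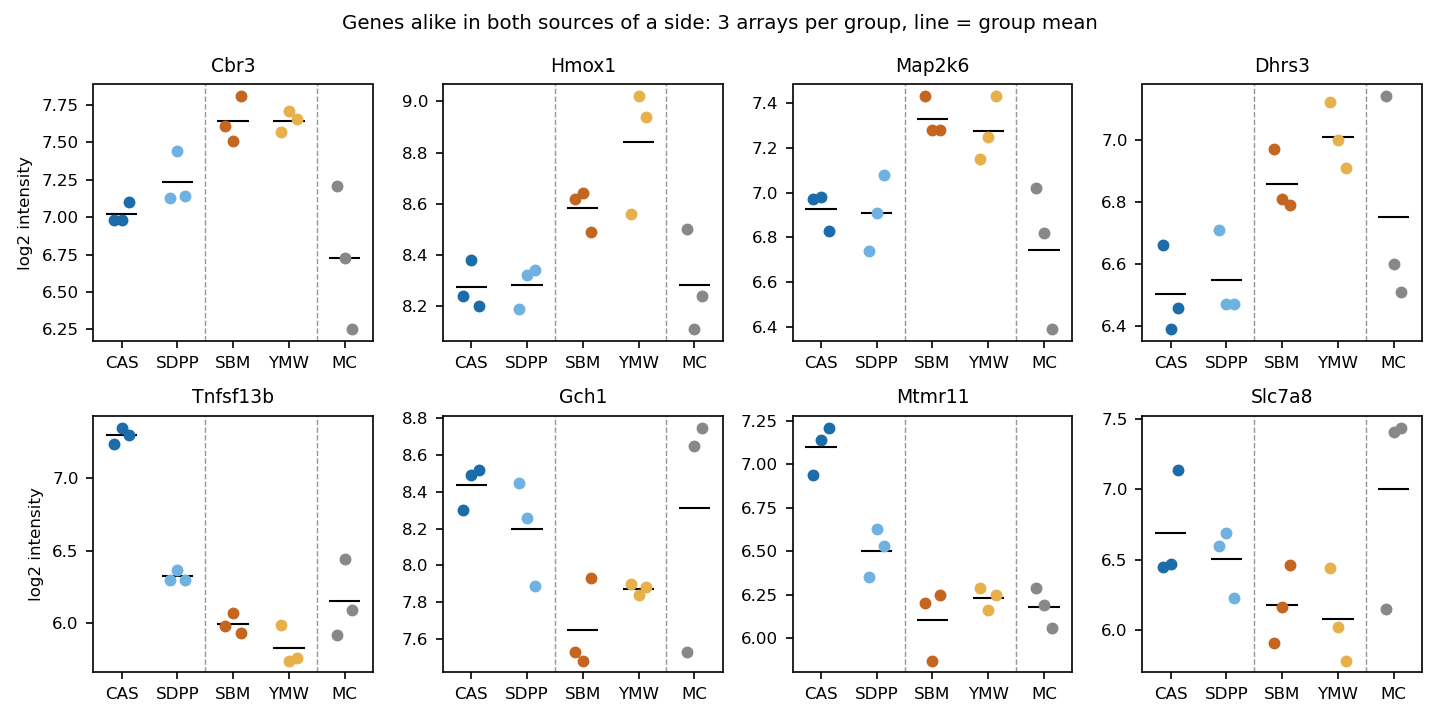
Log2 intensity (y axis) of 8 genes called alike, on each array of CAS, SDPP, SBM, YMW and MC, with group means as lines. Cbr3, Hmox1, Map2k6 and Dhrs3 were lower in every CAS and SDPP array than in any SBM or YMW array, Tnfsf13b and Mtmr11 were higher in every one, and Gch1 and Slc7a8 overlapped between the sides.

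Dhrs3, which reduces retinaldehyde to retinol, and Map2k6, the kinase that activates p38 MAP kinases, were the other genes called alike that were lower with no overlap. Dhrs3 lay at 6.39 to 6.71 (median 6.47) in CAS and SDPP, against 6.79 to 7.12 (median 6.94) in SBM and YMW, a difference of -0.41 ± 0.07 (SE, adjusted p = 0.0723). Map2k6 lay at 6.74 to 7.08 (median 6.94) in CAS and SDPP, against 7.15 to 7.43 (median 7.28) in SBM and YMW, a difference of -0.38 ± 0.07 (SE, adjusted p = 0.0984). The sources within each side were close in Map2k6, by 0.02 for CAS minus SDPP and 0.06 for SBM minus YMW. Neither gene passed the adjusted threshold. Acot2, a mitochondrial acyl-CoA thioesterase, differed by -0.44 ± 0.17 (SE), and its arrays overlapped, at 8.79 to 9.68 in CAS and SDPP and 9.32 to 10.11 in SBM and YMW. Ivl and Krt4, which encode involucrin and a keratin of squamous epithelia, each differed by -0.39, with unadjusted p of 0.0485 and 0.0262, and also overlapped.

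Gch1 was among the genes called alike and higher in CAS and SDPP. It encodes GTP cyclohydrolase 1, the entry enzyme of tetrahydrobiopterin synthesis. Its levels were 8.30, 8.49 and 8.52 in CAS and 8.45, 8.26 and 7.89 in SDPP, against 7.53, 7.48 and 7.93 in SBM and 7.90, 7.84 and 7.88 in YMW. SDPP replicate 3 fell within the SBM and YMW range, and the other 5 arrays lay above it. The difference was 0.56 ± 0.10 (SE, adjusted p = 0.0723), and all 4 differences across the sides lay between 0.33 and 0.79.

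Tnfsf13b encodes BAFF, a survival factor for B cells, and was the gene with the lowest adjusted p. Its levels were 7.24, 7.35 and 7.30 in CAS and 6.30, 6.37 and 6.30 in SDPP, against 5.98, 6.07 and 5.93 in SBM and 5.99, 5.74 and 5.76 in YMW. Both sources lay above every SBM and YMW array, but CAS exceeded SDPP by 0.97 (adjusted p = 0.000391), more than the 0.33 by which SDPP exceeded SBM. The side difference of 0.89 ± 0.06 (SE, 1.86-fold, adjusted p = 2.98e-05) therefore averages a large CAS difference and a small SDPP one. With 6 against 6 arrays and no source term, its adjusted p by limma was 0.324. Mtmr11, a member of the myotubularin family, had the same shape, with a side difference of 0.63 ± 0.08 (SE, 1.55-fold, adjusted p = 0.00995). It lay at 6.94, 7.14 and 7.21 in CAS and 6.35, 6.63 and 6.53 in SDPP, against 5.87 to 6.29 in SBM and YMW. These were the only 2 of the 21 genes in which the sources of a side differed by more than the smallest difference across the sides, and the only 2 that also passed the study's threshold.

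The remaining 7 genes that were higher and above background overlapped between the sides. Slc7a8, the basolateral transporter LAT2 of neutral amino acids, differed by 0.47 ± 0.15 (SE), at 6.23 to 7.14 (median 6.53) in CAS and SDPP, against 5.78 to 6.46 (median 6.09) in SBM and YMW. The unadjusted p was 0.00772 and the adjusted p 0.572. Coq10b, a coenzyme Q binding protein, Spsb1, an adaptor of ubiquitin ligases, Ceacam10, Lratd1, Glt28d2 and Gcg, which encodes proglucagon, differed by 0.32 to 0.43 with adjusted p of 0.458 to 0.771. Gcg and Glt28d2 were kept as alike in 5 and 3 of the 12 fits that left out 1 array.

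Beside Tnfsf13b and Mtmr11, in which CAS stood apart, 5 of the 10 genes past the adjusted threshold had 1 source that stood apart from the rest, and 4 of these are described. Mfsd4a, a solute carrier-like membrane protein, lay at 8.51 to 8.56 in CAS but at 7.64 to 7.76 in SDPP, against 7.49 to 7.75 in SBM and YMW. SDPP thus lay with SBM and YMW. Pmepa1 and Skil, feedback inhibitors of TGF-beta signalling, differed between the sides by 0.60 ± 0.07 and 0.53 ± 0.07 (SE), and CAS exceeded SDPP by 0.67 and 0.64. Cyp1a1 had a side difference of -1.25 ± 0.16 (SE), but SBM exceeded YMW by 2.20, and SDPP exceeded YMW by 0.53. Its levels were 3.69 to 4.07 in CAS and 4.70 to 5.74 in SDPP, against 6.60 to 7.21 in SBM and 4.57 to 4.95 in YMW. Cyp1b1 had the same order of source means. The last of the 10, Tns4, encodes tensin 4 of focal adhesions and was 0.30 ± 0.05 (SE, adjusted p = 0.0394) higher with no overlap, at 9.66 to 9.97 in CAS and SDPP and 9.43 to 9.61 in SBM and YMW. Its adjusted p was under 0.05 in 2 of the 12 fits that left out 1 array. It was 0.131 with a replicate block and 1 with all 15 arrays fitted.

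Members of the NRF2 target list were mostly lower on the milk and plasma side. All 19 measured members were above background, 18 of them (94.7%, beside 50.6% of all genes) had a negative difference, and the median was -0.167, against -0.001 over all genes. An unadjusted p under 0.05 was reached by 9 members, all lower, a share of 47.4% beside 3.18% of all genes. In 11 of the 19, or 57.9%, all 4 differences across the sides were negative, beside 17.2% of all genes. None passed the adjusted threshold, and Hmox1 was the only member called alike. The mean level of the list separated the sides on every array, at 9.16, 9.26 and 9.29 in CAS and 9.33, 9.36 and 9.28 in SDPP, against 9.48, 9.44 and 9.44 in SBM and 9.42, 9.53 and 9.40 in YMW. The 3 MC arrays had list means of 9.44, 9.46 and 9.48, but single members went both ways there. MC replicates 2 and 3, with enterocyte marker levels of 10.12 and 10.19, had Gclc at 9.39 and 9.26, below every CAS and SDPP array, and Gstm1 at 10.73 and 10.67, above every array of the 4 sources.

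Members that make and use glutathione were among the 9. Gclc, the catalytic subunit of the enzyme that starts glutathione synthesis, differed by -0.29 ± 0.07 (SE), at 9.87 to 10.17 in CAS and SDPP, against 10.15 to 10.63 in SBM and YMW. Slc7a11, which imports cystine, differed by -0.30 ± 0.09 (SE). Gstm1 and Gsta3 encode glutathione S-transferases. Gstm1 lay at 9.63 to 9.83 in CAS and SDPP and at 9.91 to 10.07 in SBM and YMW, with no overlap, and differed by -0.27 ± 0.05 (SE, adjusted p = 0.0834). Gsta3 differed by -0.30 ± 0.08 (SE). Nqo1, which reduces quinones, differed by -0.36 ± 0.08 (SE), at 7.98 to 8.33 in CAS and SDPP, against 8.19 to 8.79 in SBM and YMW. Ephx1, an epoxide hydrolase, and Me1, malic enzyme, differed by -0.21 and -0.19. Srxn1, sulfiredoxin, differed by -0.15, but CAS stood apart in it. Its means were 8.15 in CAS and 8.38 in SDPP, against 8.38 in SBM and 8.44 in YMW. Txnrd1, Taldo1, Tkt and Prdx1 differed by between -0.05 and -0.02 with unadjusted p above 0.24.

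Outside the list, and chosen after their values were seen, Ugdh and Gsr were lower with no overlap. Ugdh, which makes UDP-glucuronic acid, lay at 10.42 to 10.49 in CAS and SDPP, against 10.58 to 10.80 in SBM and YMW, a difference of -0.21 ± 0.04 (SE, adjusted p = 0.187). Gsr, glutathione reductase, differed by -0.17 ± 0.04 (SE, adjusted p = 0.27). A further pair of redox genes, chosen in the same way, differed in the other direction. Glrx, glutaredoxin, differed by 0.46 ± 0.08 (SE, adjusted p = 0.0536) and Gpx1, a glutathione peroxidase, by 0.30 ± 0.07 (SE, adjusted p = 0.237). Gstm1, Gsta3, Akr1b8 and Acot2 belong to families with near-identical copies, whose transcripts the probes may share.

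**Figure D3:**
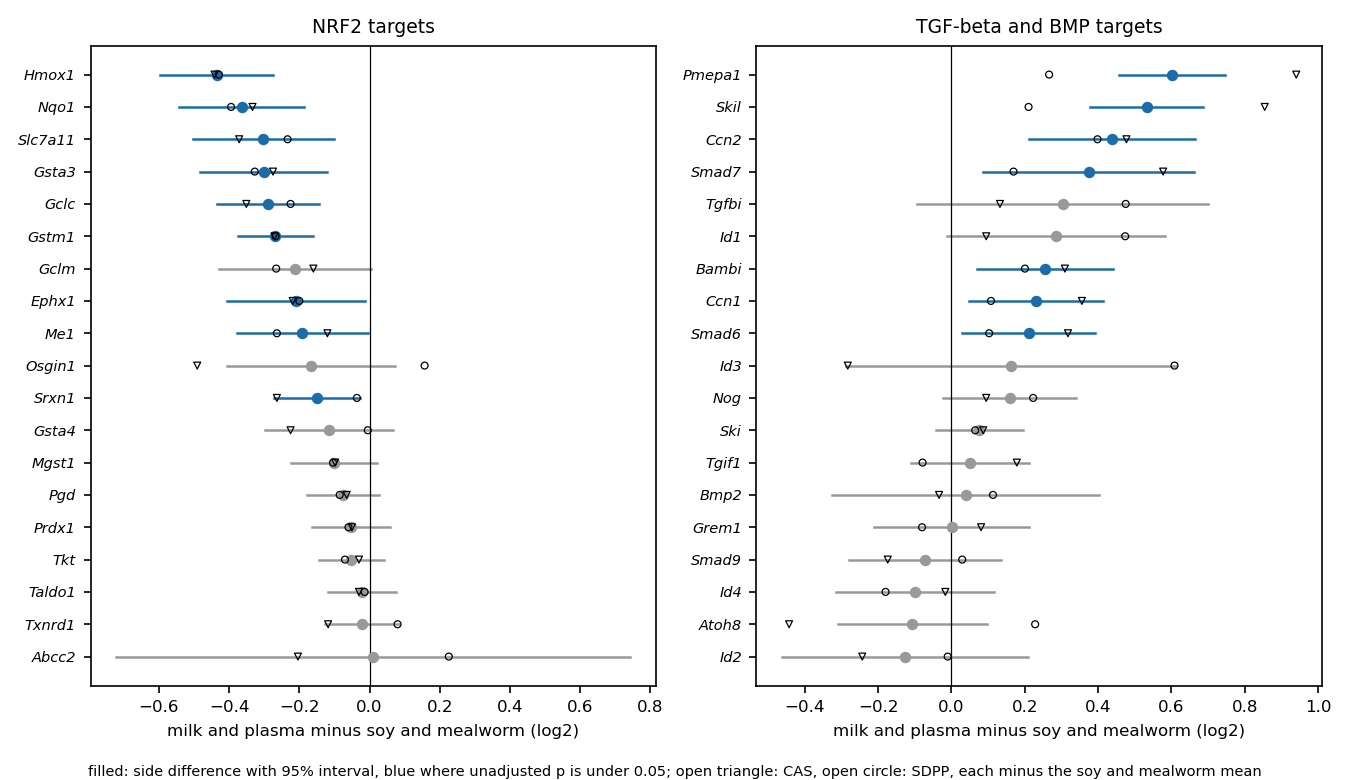
Side difference in log2 units (x axis, milk and plasma minus soy and mealworm) for each NRF2 target and each TGF-beta or BMP target measured, with its 95% interval, and the CAS and SDPP differences from the SBM and YMW mean as open marks. Among NRF2 targets, CAS and SDPP marks lie close together for Hmox1, Nqo1, Gsta3 and Gstm1. They lie far apart for Osgin1 and Abcc2, with CAS minus SDPP at -0.65 and -0.43. Pmepa1 and Skil, of the other list, also have marks far apart.

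Promoter windows of RefSeq (GRCm38.p6, 250 bases before to 50 after a gene's start) matched 16 of the 19 NRF2 targets by symbol. The letters TGACNNNGC, the core of the antioxidant response element through which NRF2 acts, were searched on both strands. They stood in at least 1 window of 9 of the 16 genes (56.2%), against 15.4% of the 14749 measured genes with a window. Over all 32851 windows of this length the share was 12.4%. The list holds genes known as NRF2 targets, so its share describes the list and not the difference between the sides. Of the 7 genes called alike and lower that have a window, 1 (14.3%) held a match. The windows of Cbr3, Akr1b8, Nqo1, Gstm1, Slc7a11 and Ephx1 held no match. Txnrd1, Prdx1 and Abcc2, with side differences of -0.02, -0.05 and 0.01, each held a match in a window. The 200 bases before the start are shown for 2 list members and for Ugdh, as examples of windows with a match among genes whose means were lower in both CAS and SDPP than in SBM and YMW, and capitals mark each match. Me1, Mgst1, Srxn1 and Map2k6, also lower in these means, held a match in a window too and are not shown. They lie at chr1:21240385-21240584 (plus strand) for Gsta3, with the match beginning 121 bases before the start, at chr3:122245357-122245556 (plus strand) for Gclm, with 1 match on the opposite strand beginning 134 bases before it, and at chr5:65435843-65436042 (minus strand) for Ugdh, with matches beginning 132 and, on the opposite strand, 94 bases before it. Each is written 5′ to 3′ along its gene.
Gsta3: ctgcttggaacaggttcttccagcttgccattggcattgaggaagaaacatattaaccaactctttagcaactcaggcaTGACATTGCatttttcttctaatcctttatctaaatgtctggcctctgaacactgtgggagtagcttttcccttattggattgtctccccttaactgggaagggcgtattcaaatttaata
Gclm: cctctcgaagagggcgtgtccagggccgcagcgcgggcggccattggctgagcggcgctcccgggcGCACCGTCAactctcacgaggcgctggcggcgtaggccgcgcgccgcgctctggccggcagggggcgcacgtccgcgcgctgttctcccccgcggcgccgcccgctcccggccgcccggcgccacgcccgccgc
Ugdh: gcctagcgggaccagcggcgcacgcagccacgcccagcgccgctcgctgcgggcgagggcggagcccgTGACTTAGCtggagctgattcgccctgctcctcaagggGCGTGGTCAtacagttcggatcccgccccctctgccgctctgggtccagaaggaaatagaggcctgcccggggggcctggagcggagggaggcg
A match describes the letters of a window and was not tested as a site. Gclm, the modifier subunit that partners Gclc, differed by -0.21 (unadjusted p = 0.0546).

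Genes of the integrated stress response, which ATF4 induces when amino acids run short or proteins misfold, leaned the same way. Of 21 measured members 19 (90.5%, beside 50.6% of all genes) were negative. An unadjusted p under 0.05 was reached by 6 (28.6%, beside 3.18%), all lower, and 16 (76.2%, beside 17.2%) had all 4 differences negative. Slc3a2, the heavy chain that partners amino acid exchangers, differed by -0.22 and Sesn2, a leucine sensor of the TORC1 pathway, by -0.25. Slc7a11 is a member of both lists. None passed the adjusted threshold or the alike rule. The median of this list was -0.092, and its mean levels overlapped, at 8.37 to 8.61 in CAS and SDPP and 8.46 to 8.73 in SBM and YMW.

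TGF-beta and BMP targets leaned upward in CAS and SDPP, though not alike in both. The median of 19 measured members was 0.163, and 15 were positive (78.9%, beside 49.4% of all genes). An unadjusted p under 0.05 was reached by 7, all higher (36.8%, beside 3.26% of all genes). Beside Pmepa1 and Skil these were Ccn2 and Ccn1, matricellular proteins, Smad7 and Smad6, inhibitory SMADs, and Bambi, a decoy receptor. None met the alike rule. Smad7 differed by 0.72 for CAS minus SBM but by 0.03 for SDPP minus YMW. Ccn2 was lower in SBM than in YMW by 0.72, and SDPP exceeded YMW by 0.04. Bambi came nearest to an even shift, with 4 differences of 0.17 to 0.34. On the AHR target list 5 of 13 measured members (38.5%, beside 3.18% of all genes) were lower at an unadjusted p under 0.05, Cyp1a1, Cyp1b1, Nqo1, Slc7a5 and Nfe2l2. SBM had the highest mean in each, and CAS was below SDPP by 0.19 in Slc7a5 and 0.24 in Nfe2l2.

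How far the cells had differentiated varied between arrays, also within a source. The mean level of 21 enterocyte markers was 7.72, 8.01 and 8.92 in CAS and 9.52, 9.08 and 7.77 in SDPP, against 7.62, 8.02 and 8.71 in SBM and 8.80, 7.90 and 7.81 in YMW. Of these markers 20 (95.2%, beside 49.4% of all genes) had a positive side difference, with a median of 0.33 over the list. None reached an unadjusted p under 0.05. The shift came from SDPP, with medians of 0.621 against SBM and 0.626 against YMW, while CAS had 0.072 and 0.035. In such monolayers a change in the share of a cell type and in its RNA per cell cannot be told apart. Without SDPP replicate 3, 12 of the 21 markers were higher at an unadjusted p under 0.05, as were 876 of all 18820 genes. Krt20, a keratin of differentiated cells, ran from 8.52 to 11.28 in CAS and SDPP and from 8.11 to 10.33 in SBM and YMW. MC arrays stood at 7.85, 10.12 and 10.19 on this list. For that reason MC levels of single genes are shown in the plots but, apart from Gclc and Gstm1 above, not compared. DNA replication genes had a negative difference in 24 of 25 members (96%, beside 50.6% of all genes) with a median of -0.129, and all 4 differences were negative in 21 (84%, beside 17.2%). Of these genes 3 (12%, beside 3.18%), Tk1, Cdt1 and Pold1, were lower at an unadjusted p under 0.05 (1 without CAS replicate 3 and 13 without SDPP replicate 3). Their list mean overlapped, at 7.82 to 8.20 in CAS and SDPP and 7.98 to 8.25 in SBM and YMW. Enteroendocrine markers were positive in 19 of 22 members (86.4%, beside 49.4% of all genes). Cck, Gcg and Insm1 were higher at an unadjusted p under 0.05 (13.6%, beside 3.26%), and Nts was lower (4.55%, beside 3.18%).

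**Figure D4:**
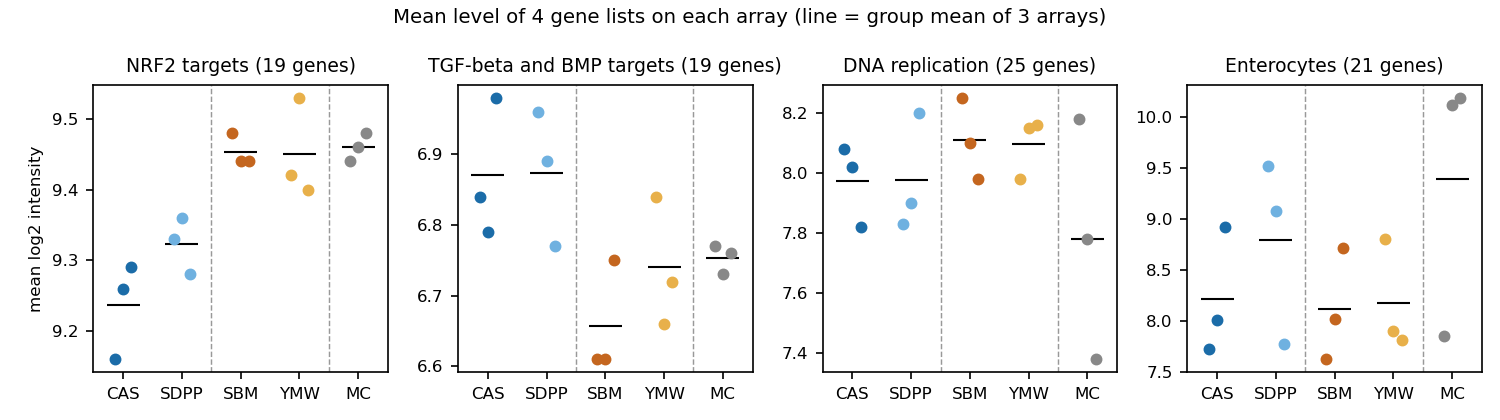
Mean log2 intensity (y axis) of 4 gene lists on each array of CAS, SDPP, SBM, YMW and MC, with group means as lines. The NRF2 list separates CAS and SDPP (9.16 to 9.36) from SBM and YMW (9.40 to 9.53), while the enterocyte list spreads widely within every source.

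Slc7a8 was highest in CAS replicate 3 (7.14), SBM replicate 3 (6.46) and YMW replicate 1 (6.44), which also had the highest enterocyte level of their sources. In SDPP it was highest in replicate 2 (6.69), while the enterocyte level was highest in replicate 1. The comparison was also fitted with that level of each array as a covariate, an alternative chosen after the data were seen and drawn from the same arrays. There 88 genes passed the adjusted threshold, 54 higher and 34 lower, and the 10 genes above were all among them. Acot2 differed by -0.62 ± 0.06 (adjusted p = 0.000169), Cbr3 by -0.54 (adjusted p = 0.00183), Hmox1 by -0.38 (adjusted p = 0.00887), Gch1 by 0.47 (adjusted p = 0.00229), Dhrs3 by -0.42 (adjusted p = 0.0186), Map2k6 by -0.32 (adjusted p = 0.0153) and Gstm1 by -0.25 (adjusted p = 0.0261). The NRF2 list had 13 of its 19 members lower at an unadjusted p under 0.05 and none higher. Of all 18820 genes, 724 were lower and 847 higher in that fit. The alike rule gave 28 genes, and only 6 of them were among the 21, with Cbr3, Acot2, Dhrs3, Tnfsf13b and Ceacam10 above background. Gcg, Glt28d2 and Ivl no longer reached an unadjusted p under 0.05. A covariate measured after exposure can also take up part of an effect of the sources, so the 88 genes stand beside the 10 and do not replace them.

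The labelled tissue was checked on marker lists of other cells. Fibroblast and muscle, endothelial and leukocyte lists had mean levels of 3.83 to 4.19 on all 12 arrays, near the background of 3.91, with 9 of 14, 5 of 10 and 5 of 15 members above it. All 17 stem cell, 21 enterocyte, 8 Paneth cell and 22 enteroendocrine markers measured were above background, as were 10 of 12 goblet cell and 9 of 14 tuft cell markers. Of all 18820 genes, 12870 were above background. The tuft cell list had the same count as the fibroblast and muscle list, so these counts do not set those lists apart. Arrays correlated with each other at 0.9870 to 0.9922 over all genes. Their median intensities ran between 21.7 and 24.1. Quantile normalization before deposit holds these medians close, so they do not check the arrays.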

How the data were processed

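The 15 arrays (Affymetrix mouse gene 1.1 ST) carry intensity values that the authors deposited after RMA (background correction, quantile normalization, probe summary; version not given in the sources used here). The values were linear, from 3.02 to 10739.1, where log2 had been assumed, so log2 was taken. Of 35556 probe sets, 21218 had 1 symbol, 1881 several and 12457 none here. The brightest probe set was kept for each of 18820 genes.

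limma 3.58.1 in R 4.3.3 fitted 1 mean per source to the 12 arrays, with a variance trend on intensity, no block, and the contrast of the mean of CAS and SDPP minus the mean of SBM and YMW. All p-values of this fit are two-sided, and adjusted p-values are Benjamini-Hochberg over all 18820 genes. The fit was tested on simulated data, where some genes simulated as unchanged also met the alike rule, the study's threshold and the adjusted threshold. P-values of this fit measure only the spread between arrays of the same source. They leave out the spread between the sources of a side. Replicate numbers were not used to pair the arrays. Same-numbered arrays did not deviate together over the genes above background, which cannot show whether a number marks a mouse.

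The members and the 46 gene lists (797 of 868 entries measured) were chosen with earlier results of these data known, so lists are described by counts and medians. Text names genes called alike by the smallest difference across sides, genes of 1 source, every gene past the adjusted threshold but 1, which is not reported here, and up to 4 members of a list. Further genes were picked with their values in view: the NRF2 members other than Hmox1, Ugdh, Gsr, Glrx, Gpx1, Smad6, Smad7, Bambi, Cck, Krt20 and the members of lists named by their p. Alternatives were other normalizations, priors, filters, offsets, blocks, arrays or sources left out, all probe sets, other limits of the alike rule, and the enterocyte covariate. Precision is limited by the number of arrays. The other assays of the study are not analysed here.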

Additional observations from a re-analysis of the deposited data

Results flagged for a closer look

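Within the 6 arrays of a side, 8 values of named genes lay farther from the others than Dixon's 95% limit allows, in 230 groups tested. Chance alone flags about 1 in 20 groups. In CAS and SDPP, Cbr3 stood at 7.44 in SDPP replicate 2 with the next array at 7.14, and Cenpf, a kinetochore protein, stood at 7.32 in SDPP replicate 1 with the next at 7.61. Cbr3 in that SDPP array was still below the lowest SBM or YMW array.

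In SBM and YMW, Gclc stood at 10.63 in YMW replicate 2 with the next array at 10.28. Mtmr11 stood at 5.87, Spsb1 at 5.40 and Tpmt, a thiopurine methyltransferase, at 7.24 in SBM replicate 2, each below the other 5 arrays. In SBM replicate 1, Hk2, hexokinase 2, was low at 9.45 and Nat2, an arylamine acetyltransferase, high at 5.28.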

How the results depend on the processing

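The counts rest on few arrays. Leaving out 1 array gave 5 to 50 genes at the study's threshold, 3 to 17 at the adjusted threshold, 15 to 58 alike, 4 to 38 of 1 source, 34 to 217 for CAS minus SDPP and 30 to 65 for SBM minus YMW. The highest of these came without SDPP replicate 3 for the study's threshold (50), the alike rule (58, of which 18 were among the 21) and CAS minus SDPP (217), and the lowest adjusted count, 3, came without YMW replicate 2. Without CAS replicate 1, SBM replicate 3 or YMW replicate 1 there were 45, 50 and 52 alike genes and 11, 21 and 21 at the study's threshold. The adjusted count was 4, 6, 6 and 5 without CAS replicate 2, SBM replicate 1, SBM replicate 2 and YMW replicate 3, and 17 without SBM replicate 3. The NRF2 list kept a median of -0.19 to -0.12 with 7 to 10 members lower at an unadjusted p under 0.05 over these fits. DNA replication had 1 to 13.

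Treating the source as a random block, or comparing 6 with 6 arrays without a source term, left 0 genes past the adjusted threshold by limma, with 1373 and 1128 at an unadjusted p under 0.05. Array weights gave 22 genes at the study's threshold, 31 adjusted, 12 of 1 source and 108 for CAS minus SDPP. An offset of 16 gave 9 alike, 22 for CAS minus SDPP and 13 for SBM minus YMW. All probe sets gave 103, 4, 186, 23, 278 and 407 in the order of the ranges given above. Without CAS, SDPP, SBM or YMW there were 25, 40, 12 and 12 genes at the study's threshold, 0, 41, 3 and 5 adjusted (without CAS, limma with 690 at an unadjusted p under 0.05), and 155, 318, 254 and 194 alike, where the rule has only 2 differences to meet. The enterocyte covariate gave 10 at the study's threshold, 88 adjusted and 7 of 1 source, and turned the enterocyte list's own median to -0.032. A smallest difference of 1.1-fold gave 274 alike and 1.5-fold gave 0, an unadjusted p under 0.01 gave 13, no fold threshold gave 1211, and a log2 difference above 1.5 gave 0. Quantile normalization and median centring each kept 15 of the 21 alike genes. With the replicate block there were 6 genes at the study's threshold, 9 adjusted and 18 alike. Same-numbered arrays deviated from their source means with a median correlation of -0.153 over 18 pairs. The labels do not tie a number to a mouse, so the block pairs numbers only.

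Single genes that changed sign were Btg2 (0.01), Cd68 (0.07), Cyp51 (-0.09), Depp1 (0.17), Hilpda (0.08), Nfkbia (0.13) and Scd2 (-0.01) without YMW, Ccn1 (-0.09) and Twist1 (-0.04) without SBM, Eng (-0.02), Lpin1 (-0.12) and Twist1 (-0.01) without CAS, and Fkbp5 (-0.20) without SDPP. The cause was not tested. Genes near background, about 15.1 in intensity, limit which differences can be seen.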
